A study of Mus musculus with 15 samples.

Results

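The RNA levels of 10 genes that code for organic anion uptake transporters were examined in the mouse liver. The genes were taken from the count table by their symbols. They are *Slco1a1*, *Slco1a4*, *Slco1b2* and *Slco2b1* of the organic anion transporting polypeptide (OATP) family, and *Slc22a7*, *Slc22a26*, *Slc22a27*, *Slc22a28*, *Slc22a29* and *Slc22a30* of the organic anion transporter (OAT) branch of the Slc22 family. They make up 10 of the 55573 genes counted, and all 10 were among the 17655 genes with enough counts to be tested. The RNA-seq libraries came from livers of 15 mice aged 8 weeks, 1 library per mouse: 3 wild type (WT) females, 3 WT males, 4 ESR1KO males and 5 ESR1KO females. All mice carry the strain label B6N(Cg)-Esr1tm4.2Ksk/J. The ESR1KO mice, bred from heterozygous parents, are homozygous for a deletion of exon 3 of *Esr1*, the gene of estrogen receptor alpha. The receptor is therefore missing in every tissue and not in the liver alone, and the study describes raised testosterone in both sexes of these mice. The question was whether sex-biased expression of these transporters in the liver depends on ESR1.

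OATPs and OATs are membrane proteins that bring anionic compounds into cells. In the hepatocyte, OATPs in the sinusoidal membrane, which faces the blood, take up bile acids, bilirubin, thyroid hormones, sulfated or glucuronidated steroids and many drugs. Canalicular pumps then move the same kinds of compound, often after conjugation, into bile, so the uptake step helps to set how fast the liver clears them.

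Total counts lay between 27799061 and 78624766 per library. *Xist*, expressed from the inactive X chromosome, was at 448 to 634 CPM (counts scaled to TMM library sizes) in females and at 0.0317 to 0.0988 CPM in males, and the summed level of 4 Y-linked genes was at most 0.0261 CPM in females and at least 184 CPM in males. *Esr1* was at 74.7 to 88.2 CPM in WT females and 25.0 to 52.0 CPM in WT males, against 9.67 to 19.7 CPM in ESR1KO females and 8.22 to 16.1 CPM in ESR1KO males. Its count covers the whole gene and not exon 3 alone. The summed level of 9 hepatocyte markers was 109097 to 113676 CPM in WT females and 81053 to 84024 CPM in WT males, and 87663 to 111631 CPM in ESR1KO mice of both sexes. Most of this sum was *Alb*, at 82839 to 91604 CPM in WT females and 53546 to 55916 CPM in WT males. *Hnf4a*, of the same list, overlapped, at 536 to 606 CPM in WT females and 572 to 609 CPM in WT males. Summed over 21 markers of bile duct, immune, endothelial, stellate and blood cells, the level was 869 to 1392 CPM, and the 4 groups overlapped. Single markers can differ within such a sum: *Col3a1* was at 192 to 272 CPM in ESR1KO males and at 67.7 to 190 CPM in the other mice. It was past the edgeR threshold in none of the comparisons. In *Col1a1* and *Lrat*, ESR1KO males overlapped with each of the other groups. The kidney markers *Kap* and *Aqp2* were at 0 in every library, while the summed level of 10 kidney markers was 0.665 to 2.34 CPM in WT females and 3.63 to 5.56 CPM in WT males. The part that these marker differences have in the transporter results was not tested. In RNA of a whole liver, fewer cells of a type and less RNA per cell cannot be told apart.

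In WT livers, expression of several of the 10 members was sex-biased. Because the members were chosen with earlier results of these data known, their counts beside the shares of all genes are a description. They are not a test of the list. At an adjusted p under 0.05 (edgeR quasi-likelihood F test, adjusted over all 17655 genes), 6 of the 10 members differed between WT females and WT males, where 4.87% of all tested genes did. *Slc22a26*, *Slc22a27*, *Slco1a4* and *Slc22a29* were higher in females (2.67% of all genes), and *Slc22a28* and *Slco1a1* were higher in males (2.2%). In 4 of these the log2 fold change was at least 1.5 in size, against 1.81% of all genes. The WT sexes did not overlap in CPM for 9 of the 10 members, where 30.1% of all genes did not overlap. The 10th, *Slco1b2*, overlapped.

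Among ESR1KO mice, 1 of the 10 members differed between the sexes, *Slc22a26*, which was higher in females, where 0.272% of all genes differed (0.159% higher and 0.113% lower in females). It was also the sole member that did not overlap between ESR1KO females and males (5.22% of all genes) and the sole member with a log2 fold change of at least 1.5 (0.142% of all genes). The sex difference, as the size of the log2 fold change, was smaller in ESR1KO than in WT mice for 9 of the 10 members. It was larger for *Slco1b2*. The share of all tested genes with a smaller difference in ESR1KO mice was not computed, so the count of 9 describes these members alone. The median size of the sex difference over the members was 1.38 in WT and 0.35 in ESR1KO mice, against 0.19 and 0.18 over all tested genes. Whether the sex difference itself differed between genotypes was tested as the interaction, which is the log2 sex difference in ESR1KO mice minus that in WT mice. It passed the threshold for 5 of the 10 members, where 1.94% of all genes passed: it was above 0 for *Slco1a1*, *Slc22a28* and *Slc22a30* (1.02% of all genes) and below 0 for *Slc22a26* and *Slc22a27* (0.923%). In 4 of them it was at least 1.5 in size (1.09% of all genes).

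**Figure D1:**
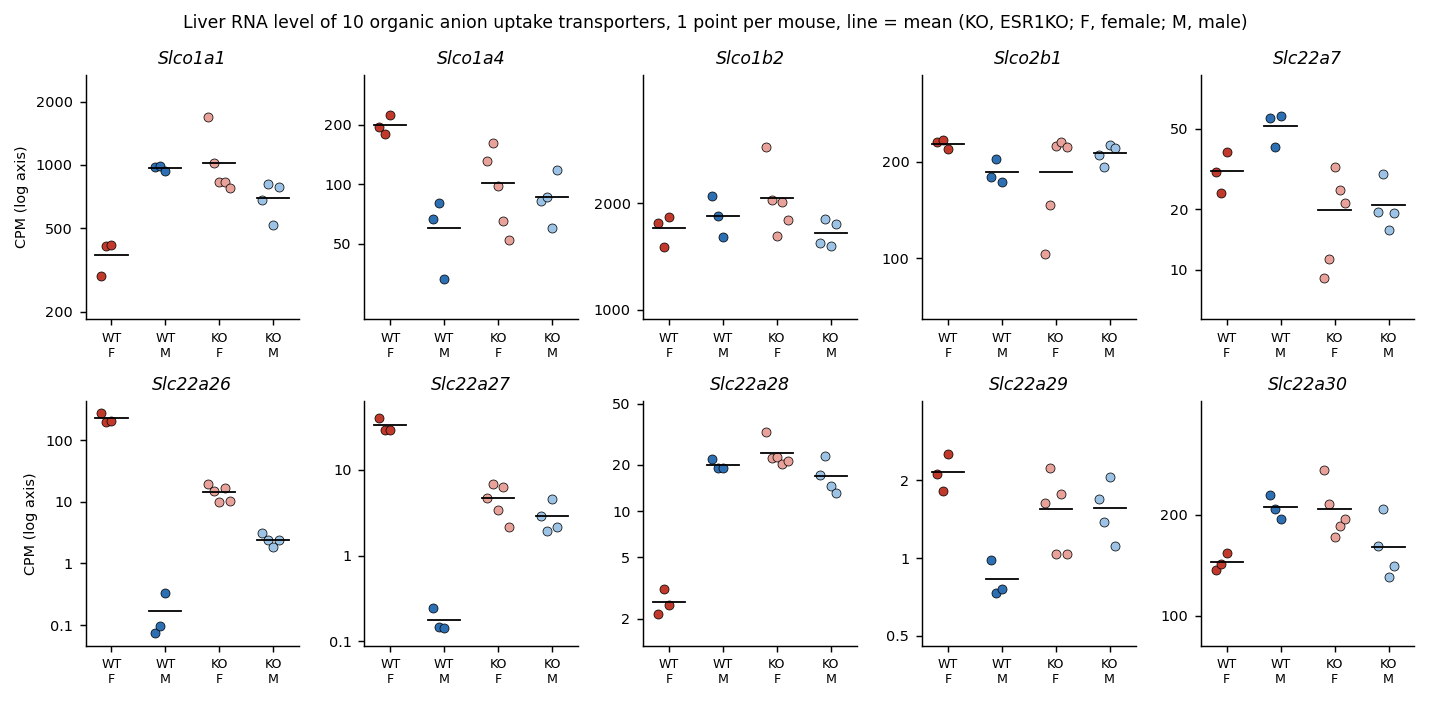
CPM of each member in each mouse (1 point per mouse, log axis that differs between panels), with the mean of each group as a line. WT females stand apart from the other 3 groups in *Slc22a26*, *Slc22a27*, *Slc22a28*, *Slco1a1* and *Slco1a4*, and ESR1KO females and males lie between the WT sexes in *Slc22a26* and *Slc22a27*.

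The 5 genes *Slc22a26* to *Slc22a30* stand side by side on the minus strand of chromosome 19 (GRCm38, positions 7781041 to 8405111). They belong to a rodent group of OATs, and their substrates are less well known than those of *Slc22a7*. The 300-base windows around their RefSeq starts (250 bases before and 50 after, GRCm38.p6, minus strand) are shown for 4 of them. In 3 of these 4 the upstream sequence is closely similar. Of those 3, *Slc22a28* and *Slc22a30* were lower in WT females than in WT males (log2 -2.96 and -0.54, the second not past the threshold). *Slc22a29* was higher in WT females (1.39). The windows are chr19:8131933-8132232 for *Slc22a28*, chr19:8218851-8219150 for *Slc22a29*, chr19:8405056-8405355 for *Slc22a30* and chr19:7802618-7802917 for *Slc22a26*. Capitals mark matches, on either strand, to 5 of the 6 motifs reported, which are spelled out beside the results for the windows that hold them.
Slc22a28: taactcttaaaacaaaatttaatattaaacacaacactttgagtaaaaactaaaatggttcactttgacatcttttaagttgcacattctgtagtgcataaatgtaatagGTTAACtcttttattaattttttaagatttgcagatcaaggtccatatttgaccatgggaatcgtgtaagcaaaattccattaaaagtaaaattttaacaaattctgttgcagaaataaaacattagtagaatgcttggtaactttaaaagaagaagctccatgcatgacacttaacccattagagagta
Slc22a29: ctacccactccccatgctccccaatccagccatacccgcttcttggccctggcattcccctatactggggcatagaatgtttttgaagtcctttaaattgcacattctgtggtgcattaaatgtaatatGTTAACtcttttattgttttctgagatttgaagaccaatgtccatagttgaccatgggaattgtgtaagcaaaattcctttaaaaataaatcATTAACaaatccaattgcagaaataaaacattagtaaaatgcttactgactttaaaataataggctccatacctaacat
Slc22a30: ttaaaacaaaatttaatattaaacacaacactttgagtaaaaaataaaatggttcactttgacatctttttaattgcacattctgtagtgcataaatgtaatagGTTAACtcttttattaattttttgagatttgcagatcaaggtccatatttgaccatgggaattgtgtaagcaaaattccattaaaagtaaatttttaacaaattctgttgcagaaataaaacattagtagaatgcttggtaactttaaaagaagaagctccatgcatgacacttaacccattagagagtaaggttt
Slc22a26: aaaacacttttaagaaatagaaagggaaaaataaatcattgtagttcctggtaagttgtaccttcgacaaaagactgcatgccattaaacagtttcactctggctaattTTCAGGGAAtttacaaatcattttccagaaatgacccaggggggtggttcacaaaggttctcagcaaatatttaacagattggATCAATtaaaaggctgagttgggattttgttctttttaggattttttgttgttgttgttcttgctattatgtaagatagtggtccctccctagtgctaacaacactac

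The windows of *Slc22a28* and *Slc22a30* were identical at 288 of 294 aligned bases. That of *Slc22a29* was identical to *Slc22a30* at 197 of 227 aligned bases and to *Slc22a28* at 185 of 217. In contrast, no stretch longer than 29 bases of the *Slc22a26* window aligned with any of the 3. All 3 similar windows hold the palindrome GTTAAC, which 3.05% of all 32851 windows of this length hold, and that of *Slc22a29* also holds GTTAAT, a half-site of hepatocyte nuclear factor 1 (7.1%). The *Slc22a26* window instead holds 1 match to TTCNNNGAA, the palindrome that STAT5 and BCL6 bind (8.3% of all windows), and 1 match to ATTGAT, a core of CUX2 and HNF6 sites (7.54%). The *Slc22a27* window, not shown, holds no match to any of the 6 motifs, although this gene was also higher in WT females. The window of *Slco1b2*, whose WT sexes overlapped, also holds 1 match to TTCNNNGAA. A match is a description of letters and not a binding site. The full palindromic estrogen response element, which 0.07% of all windows hold, was in none of the 9 member windows that were found, which says only that these letters are not in these windows.

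*Slc22a26* showed the largest sex difference among the members. It was at 272, 198 and 207 CPM in WT females and at 0.0741, 0.0978 and 0.333 CPM in WT males. In ESR1KO females it was at 19.2, 15.2, 9.85, 16.6 and 10.4 CPM, and in ESR1KO males at 3.14, 2.40, 1.83 and 2.41 CPM. The 4 groups did not overlap: every ESR1KO mouse lay below all WT females and above all WT males, and every ESR1KO female lay above every ESR1KO male. The log2 fold change between the sexes was 10.20 ± 0.41 (standard error, edgeR adjusted p = 6.15e-11) in WT mice and 2.56 ± 0.24 (edgeR adjusted p = 1.96e-05) in ESR1KO mice. The interaction was -7.64 ± 0.45 (edgeR adjusted p = 1.15e-07). The WT male level rests on 28 reads, 21 of them in WT male 3, and without that mouse the WT sex difference was 11.31 and the interaction -8.75.

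*Slc22a27* was likewise higher in WT females. WT females were at 39.5, 29.2 and 29.3 CPM, and WT males at 0.247, 0.147 and 0.143 CPM, from 25 reads in all. ESR1KO females were at 4.62, 6.84, 3.41, 6.24 and 2.16 CPM, and ESR1KO males at 2.89, 1.91, 4.58 and 2.14 CPM. Here too every ESR1KO mouse lay between the WT sexes, but the ESR1KO sexes overlapped. The sex difference was 7.53 ± 0.51 (edgeR adjusted p = 4.14e-08) in WT mice and 0.68 ± 0.30 (edgeR adjusted p = 0.261) in ESR1KO mice, and the interaction was -6.85 ± 0.59 (edgeR adjusted p = 2.55e-06).

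*Slc22a28* had the opposite bias. It was at 2.13, 3.14 and 2.45 CPM in WT females and at 21.7, 19.1 and 19.1 CPM in WT males. In ESR1KO females it was at 32.7, 22.2, 22.6, 20.2 and 21.3 CPM, and in ESR1KO males at 17.2, 22.9, 14.5 and 13.2 CPM. WT females were the low group, and the ESR1KO mice of both sexes lay above all of them. The WT sex difference was -2.96 ± 0.23 (edgeR adjusted p = 1.92e-07), the ESR1KO sex difference was 0.49 ± 0.17 (edgeR adjusted p = 0.175), and the interaction was 3.45 ± 0.28 (edgeR adjusted p = 1.82e-06).

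*Slc22a29* had the lowest level per kilobase of exon among the 5 in every group but WT males. WT females were at 2.12, 1.82 and 2.54 CPM, WT males at 0.988, 0.733 and 0.761 CPM, and the ESR1KO mice between 1.04 and 2.23 CPM. The WT sexes did not overlap (log2 1.39 ± 0.30, edgeR adjusted p = 0.00991), whereas the ESR1KO sexes did, with a difference of -0.02 ± 0.24 (edgeR adjusted p = 0.979). The interaction of -1.40 ± 0.38 missed the threshold (edgeR adjusted p = 0.0764). It passed with DESeq2 (DESeq2 adjusted p = 0.0180), without a filter on low counts (edgeR adjusted p = 0.0423) and without ESR1KO female 2 (0.0350).

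*Slc22a30* is the gene whose upstream window is nearly identical to that of *Slc22a28*. It was at 137, 143 and 153 CPM in WT females and 228, 208 and 194 CPM in WT males, which did not overlap. ESR1KO females were at 272, 214, 172, 185 and 194 CPM and ESR1KO males at 161, 208, 131 and 141 CPM, which overlapped. The sex difference of -0.54 ± 0.18 in WT mice did not pass the threshold (edgeR adjusted p = 0.0968), nor was that of 0.37 ± 0.14 in ESR1KO mice (edgeR adjusted p = 0.211). Their difference, the interaction of 0.92 ± 0.23, was narrowly past it (edgeR adjusted p = 0.0483), and that call was lost on leaving out 11 of the 15 mice in turn, with edgeR adjusted p up to 0.140, and under the replicate block (edgeR adjusted p = 0.0538). The WT sex difference passed with DESeq2 (DESeq2 adjusted p = 0.0403). It also passed without a filter on low counts (edgeR adjusted p = 0.0398), with the compared groups alone (0.00891) and without ESR1KO female 1 (0.0349).

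Reads from these neighbours may be hard to tell apart. Of all 50-base stretches in the annotated transcripts, 53.9% of those of *Slc22a28*, 34.0% of *Slc22a30*, 29.7% of *Slc22a27* and 28.7% of *Slc22a29* also occur in another member, whereas none of *Slc22a26* does. The transcripts of *Slc22a28* and *Slc22a30* were 98.9% identical over 1485 aligned bases. Those of *Slc22a27* and *Slc22a29* were 96.8% identical over 2088 aligned bases. How reads that map to several places were counted is not given in the sources used here, so the counts of *Slc22a27*, *Slc22a28*, *Slc22a29* and *Slc22a30* carry that uncertainty.

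Per kilobase of exon, the 5 genes together were at 137 ± 14.6 CPM per kb in WT females (SD, n = 3) and 72.9 ± 5.75 in their male counterparts (SD, n = 3). The values for ESR1KO mice were 81.1 ± 15.3 for females (SD, n = 5) and 58.8 ± 11.9 for males (SD, n = 4). *Slc22a26* made up 55.7 ± 3.89% of this sum in WT females but 0.0815 ± 0.0740% of it in WT males, and in ESR1KO mice 5.91 ± 1.11% for females and 1.43 ± 0.325% for males. *Slc22a30* made up 31.6 ± 4.42%, 85.6 ± 0.472%, 75.9 ± 1.72% and 80.6 ± 1.94% in the same order. *Slc22a30* took the largest share and *Slc22a28* the next largest in each of the 12 mice other than the WT females.

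**Figure D2:**
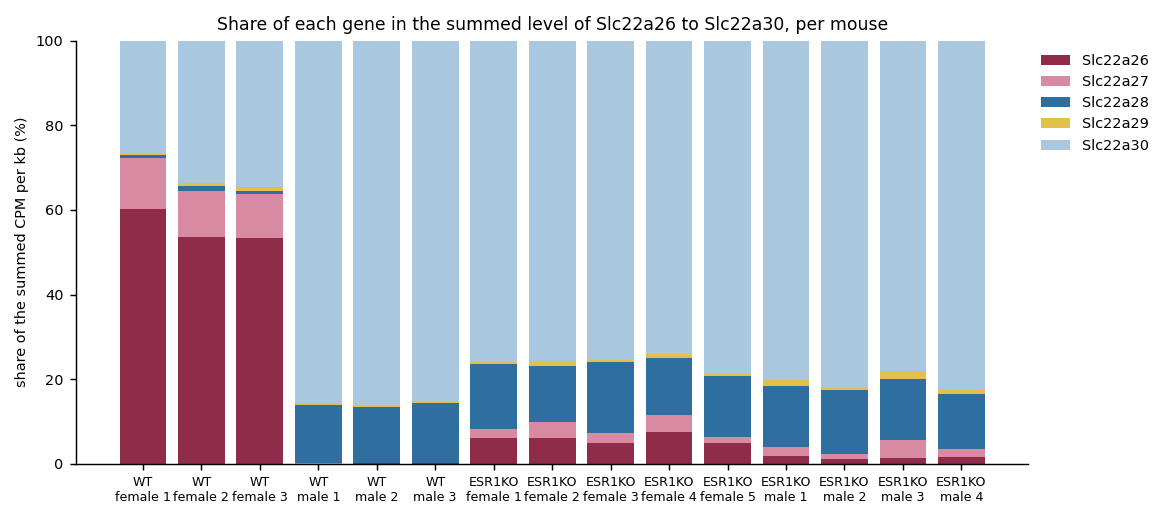
Share of each of the 5 neighbouring genes in their summed CPM per kb (stacked bars, percent, 1 bar per mouse). *Slc22a26* takes 53.3 to 60.2% in the 3 WT females and at most 7.55% in the other 12 mice.

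The OATP genes *Slco1b2*, *Slco1a4* and *Slco1a1* lie in this order along chromosome 6, and *Slco1a4* (chr6:141805440-141856199) and *Slco1a1* (chr6:141907282-141946962), both on the minus strand, had opposite sex bias. OATP1A1 and OATP1A4, the proteins they code for, take up bile acids and conjugated steroids, and OATP1A4 is known for the uptake of cardiac glycosides. The windows around their RefSeq starts, chr6:141946913-141947212 and chr6:141856171-141856470, are shown because the 2 genes have similar transcripts (84.1% identical over 2861 aligned bases) but their windows align over 25 bases at most, 23 of them identical. Capitals mark TATAAA on the other strand, which 13.6% of all windows hold on either strand. The *Slco1a4* window holds no match to any of the 6 motifs.
Slco1a1: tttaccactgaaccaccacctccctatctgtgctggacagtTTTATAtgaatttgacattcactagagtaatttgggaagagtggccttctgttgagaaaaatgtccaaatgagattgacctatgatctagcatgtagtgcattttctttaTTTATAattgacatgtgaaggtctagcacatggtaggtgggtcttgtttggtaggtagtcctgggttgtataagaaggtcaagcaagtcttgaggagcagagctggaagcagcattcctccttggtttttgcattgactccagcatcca
Slco1a4: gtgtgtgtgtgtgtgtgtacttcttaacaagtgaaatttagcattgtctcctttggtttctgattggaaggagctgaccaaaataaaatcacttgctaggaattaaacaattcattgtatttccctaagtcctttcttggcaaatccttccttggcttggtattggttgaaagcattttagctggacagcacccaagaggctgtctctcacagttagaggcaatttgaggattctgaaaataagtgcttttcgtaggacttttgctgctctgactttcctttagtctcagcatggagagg

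*Slco1a1* was at 295, 411 and 415 CPM in WT females and at 982, 989 and 934 CPM in WT males. In ESR1KO females it was at 1681, 1018, 830, 827 and 777 CPM, and in ESR1KO males at 683, 810, 519 and 786 CPM. WT females were lowest, and every ESR1KO mouse lay above them. Within ESR1KO mice the sexes overlapped, and ESR1KO female 1 was far above the others. The log2 sex difference was -1.37 ± 0.26 in WT mice (edgeR adjusted p = 0.00339) and 0.55 ± 0.21 in ESR1KO mice (edgeR adjusted p = 0.206), with an interaction of 1.93 ± 0.33 (edgeR adjusted p = 0.00337).

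*Slco1a4* was at 196, 180 and 225 CPM in WT females and at 66.7, 80.1 and 33.1 CPM in WT males. ESR1KO females were at 131, 161, 97.9, 65.5 and 52.1 CPM, and ESR1KO males at 82.6, 85.7, 60.2 and 118 CPM. All ESR1KO mice lay below the WT females, and both ESR1KO groups overlapped with the WT males and with each other. The WT sex difference was 1.74 ± 0.38 (edgeR adjusted p = 0.0105) and that of ESR1KO mice 0.23 ± 0.30 (edgeR adjusted p = 0.705). The interaction of -1.51 ± 0.47 did not pass the threshold (edgeR adjusted p = 0.144), though it did without a filter on low counts (edgeR adjusted p = 0.0185). On counts, 1.58% of the 50-base stretches of *Slco1a1* and 1.31% of those of *Slco1a4* occur in the other.

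*Slco1b2* codes for OATP1B2, the main sinusoidal OATP for unconjugated bile acids, bilirubin and statins in the mouse and the counterpart of the human hepatic OATP1B proteins. It was at 1757, 1501 and 1833 CPM in WT females and 2095, 1837 and 1605 CPM in WT males. ESR1KO females were between 1615 and 2894 CPM (median 2011) and ESR1KO males between 1514 and 1802 CPM. All groups overlapped. None of the comparisons passed the threshold: the sex difference was -0.12 ± 0.19 in WT mice (edgeR adjusted p = 0.80) and 0.33 ± 0.16 in ESR1KO mice (edgeR adjusted p = 0.286), and the interaction was 0.45 ± 0.24 (edgeR adjusted p = 0.409).

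*Slco2b1* codes for OATP2B1, a carrier of steroid sulfates found in many tissues. It was at 231, 235 and 219 CPM in WT females and 180, 204 and 173 CPM in WT males, which did not overlap, yet the log2 sex difference of 0.30 ± 0.22 did not pass the threshold (edgeR adjusted p = 0.546). ESR1KO males were between 193 and 226 CPM. ESR1KO females fell into low and high values, with 103 and 146 CPM in females 1 and 2 and 224, 231 and 224 CPM in the other 3. The ESR1KO sex difference was -0.20 ± 0.18 (edgeR adjusted p = 0.577). Its exons overlap those of 2 antisense genes, *Gm15635* and *Gm34280*, over 549 bases, and the strand setting of the counting is not given in the sources used here.

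*Slc22a7* codes for OAT2, a sinusoidal carrier of small anions such as orotate, nucleotides and prostaglandins. It was at 30.5, 24 and 38.2 CPM in WT females and 56.5, 40.5 and 57.8 CPM in WT males. ESR1KO females were at 9.12, 11.3, 32.1, 25.0 and 21.5 CPM, and ESR1KO males at 19.4, 29.8, 15.7 and 19 CPM. WT males were the highest group and did not overlap with any other. The sex difference was -0.74 ± 0.36 in WT mice (edgeR adjusted p = 0.306) and -0.08 ± 0.30 in ESR1KO mice (edgeR adjusted p = 0.905), and neither passed the threshold.

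**Figure D3:**
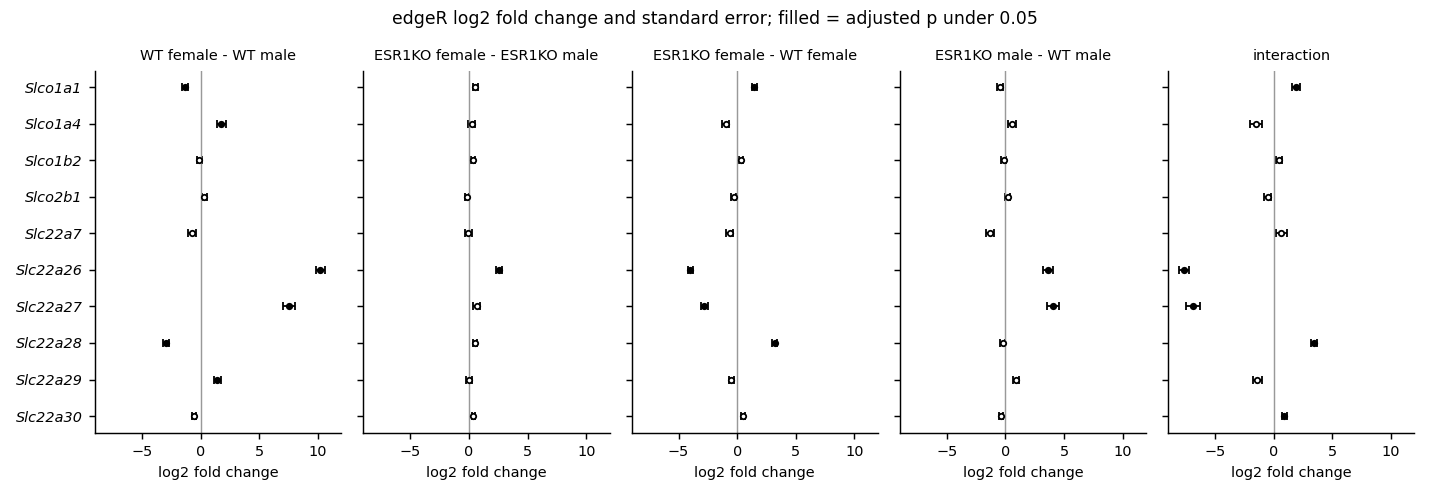
edgeR log2 fold change (x axis) of each member in 5 comparisons, with standard errors. Filled points passed an adjusted p under 0.05: 6 in WT mice between the sexes, 1 in ESR1KO mice, 4 and 2 between genotypes in females and males, and 5 for the interaction.

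The genotypes were then compared within each sex. Among females, 4 of the 10 members differed between ESR1KO and WT, where 5.71% of all genes did (3.14% higher and 2.57% lower in ESR1KO). *Slco1a1* (log2 1.46 ± 0.24, edgeR adjusted p = 0.00156) and *Slc22a28* (3.21 ± 0.22, edgeR adjusted p = 7.81e-08) were higher in ESR1KO females. *Slc22a26* (-3.99 ± 0.23, edgeR adjusted p = 9.77e-09) and *Slc22a27* (-2.82 ± 0.30, edgeR adjusted p = 1.66e-05) were lower. These are changes of 2.75-fold, 9.27-fold, 15.9-fold and 7.07-fold, respectively. In 3 of the 4 the log2 change was at least 1.5 in size (1.2% of all genes), and 6 members, these 4 with *Slco1a4* and *Slc22a30*, did not overlap between the groups (15.6% of all genes). *Slco1a4* was -0.98 ± 0.32 (edgeR adjusted p = 0.0834) and *Slc22a30* 0.52 ± 0.16 (edgeR adjusted p = 0.0650). Of the other 4, *Slco1b2* was at 0.29, *Slco2b1* at -0.30, *Slc22a7* at -0.64 and *Slc22a29* at -0.49, with edgeR adjusted p of at least 0.244.

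The *Slco1a4* change in females passed the threshold without ESR1KO female 2 (-1.21, edgeR adjusted p = 0.0453), which had the highest level of its group. That of *Slc22a30* passed it without ESR1KO female 3 (0.59, edgeR adjusted p = 0.0410) or ESR1KO male 2 (0.52, edgeR adjusted p = 0.0399). Without a filter on low counts, both changes passed (edgeR adjusted p = 0.0147 and 0.0308). With DESeq2, the *Slc22a30* change passed (DESeq2 adjusted p = 0.0240). Both genotype comparisons share their WT mice with the WT sex comparison, so they are not independent of it.

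Among males, 2 of the 10 members differed between ESR1KO and WT, where 1.42% of all genes did (0.833% higher and 0.583% lower in ESR1KO). Both were higher in ESR1KO males, *Slc22a26* by 3.65 ± 0.41 on the log2 scale (edgeR adjusted p = 1.68e-04, 4.76 without WT male 3) and *Slc22a27* by 4.03 ± 0.51 (edgeR adjusted p = 5.24e-04). Both changes were over 1.5 (0.578% of all genes). The groups did not overlap for 5 members (15.9% of all genes), these 2 with *Slco1a1*, *Slc22a7* and *Slc22a29*. *Slc22a7* was -1.30 ± 0.33 (edgeR adjusted p = 0.0699), *Slc22a29* 0.91 ± 0.29 (edgeR adjusted p = 0.152) and *Slco1a1* -0.47 ± 0.23 (edgeR adjusted p = 0.461). The *Slc22a7* change passed the threshold without ESR1KO female 1 (edgeR adjusted p = 0.0227), ESR1KO female 3 (0.0437) or ESR1KO male 2 (0.0420). With all mice it passed with DESeq2 (DESeq2 adjusted p = 0.00613). It also passed without a filter on low counts (edgeR adjusted p = 0.00152) and with the compared groups alone (edgeR adjusted p = 0.0117). It did not pass with other scalings, a minimum of 1 CPM or the replicate block (edgeR adjusted p = 0.132 with the block). For the other 5 members the log2 change was between -0.39 for *Slc22a30* and 0.53 for *Slco1a4*, with edgeR adjusted p of at least 0.330.

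*Slc22a26* and *Slc22a27* thus moved in opposite directions in the 2 sexes, lower in ESR1KO females and higher in ESR1KO males than in WT mice of the same sex, with each change past the threshold. For *Slco1a1* and *Slc22a28* only the change in females passed it, and the interaction tests above give the difference between the sexes for both.

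**Figure D4:**
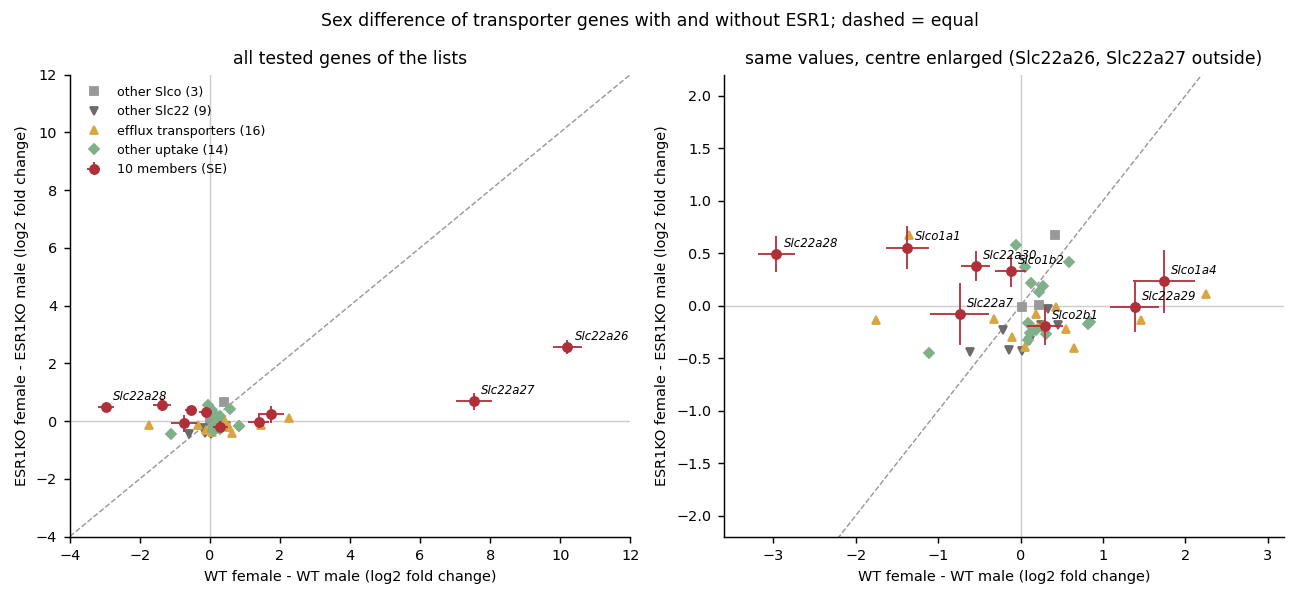
Log2 fold change between females and males in ESR1KO mice (y axis) against that in WT mice (x axis) for the 10 members, with standard errors, and for the tested genes of 4 other transporter lists. The right panel enlarges the centre. All members but *Slco1b2* lie nearer to 0 on the y axis than on the x axis. On the x axis *Slc22a26* (10.20), *Slc22a27* (7.53) and *Slc22a28* (-2.96) lie outside the range of the other lists. On the y axis *Slc22a26* (2.56) lies far outside it, while *Slc22a27* (0.68) lies beside *Slco4a1* (0.68).

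How far the ESR1KO females remained from WT males was compared next. In this comparison 3 of the 10 members differed, where 2.61% of all genes did (1.38% higher and 1.23% lower in ESR1KO females). *Slc22a26* was higher by 6.21 ± 0.38 (edgeR adjusted p = 3.96e-08, 7.33 without WT male 3) and *Slc22a27* by 4.71 ± 0.49 (edgeR adjusted p = 2.44e-05), while *Slc22a7* was lower, at -1.38 ± 0.31 (edgeR adjusted p = 0.0261). The change was at least 1.5 in size for the first 2 (0.816% of all genes). For 4 members, these 3 with *Slc22a29*, the groups did not overlap (9.91% of all genes). The *Slc22a7* call was lost without WT male 1 (edgeR adjusted p = 0.107), WT male 3 (0.113) or ESR1KO female 2 (0.0613), and when these 2 groups were fitted alone (0.0774). *Slc22a29* (0.90 ± 0.28, edgeR adjusted p = 0.105) passed without ESR1KO female 5 (edgeR adjusted p = 0.0451) and with DESeq2 (DESeq2 adjusted p = 0.0420). *Slco1a1* was at 0.08 ± 0.23 and *Slc22a28* at 0.25 ± 0.18, against -1.37 and -2.96 for WT females, and a difference from WT males was not detectable for either (edgeR adjusted p = 0.875 and 0.494).

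With so few mice per group, an exact two-sided permutation test of a single member could not go below p = 0.10 for 3 against 3 mice, 0.0571 for 4 against 3, 0.0357 for 5 against 3 and 0.0159 for 5 against 4. *Slc22a26* reached the smallest possible p in all 5 pairs of groups compared, and between ESR1KO females and males it was the sole member to do so. There *Slco1a1* had an exact permutation p of 0.0476, unadjusted over the 10 members.

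Levels of different members were compared per kilobase of exon. *Slco1b2* was the highest in all 4 groups, at 344 ± 35.3 and 374 ± 49.8 CPM per kb in WT females and males (SD, n = 3 each) and at 420 ± 99.9 (SD, n = 5) and 335 ± 29.6 (SD, n = 4) in the ESR1KO sexes. In WT females *Slc22a26* (76.5 ± 13.7 CPM per kb) and *Slco1a1* (70.8 ± 12.9) came next and differed by less than their spread. In WT males came *Slco1a1* at 184 ± 5.68 CPM per kb, then *Slc22a30* at 62.4 ± 5.01, and *Slc22a26* last at 0.0571 ± 0.0485. *Slco1a1* and *Slc22a30* also followed *Slco1b2*, in this order, in ESR1KO females and in ESR1KO males. In ESR1KO females the order from *Slco2b1* (31.2 ± 9.68 CPM per kb) through *Slco1a4*, *Slc22a28* and *Slc22a7* to *Slc22a26* (4.83 ± 1.36) held no neighbours that differed beyond their spread.

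Of the 5 ESR1KO females, numbers 1 and 2 stood apart from the other 3 in several members. Besides low *Slco2b1* and *Slc22a7* and high *Slco1a4*, given above, their levels of collagen genes were low: *Col3a1* was at 67.7 and 75.6 CPM in these 2 and at 156, 168 and 190 CPM in the other 3, and *Col1a1* was at 6.25 and 6.40 CPM against 19.7, 18.7 and 25.5 CPM. *Lrat*, a marker of stellate cells, was at 59.1 and 54.6 CPM in these 2 and at 42.2, 30.7 and 29.6 CPM in the other 3. No label sets these mice apart, and the part of these differences in the transporter values was not tested. Without both, a setting chosen after seeing the data, all of the calls in the female genotype comparison held, with *Slco1a1* at 1.12 and *Slc22a28* at 3.06. *Slco1a4* then passed too (-1.48, edgeR adjusted p = 0.0149). The interaction came to pass for *Slco1a4* (-2.01, edgeR adjusted p = 0.0206) and *Slc22a29* (-1.66, edgeR adjusted p = 0.0298). For *Slc22a30* it no longer passed (0.74, edgeR adjusted p = 0.0681).

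**Figure D5:**
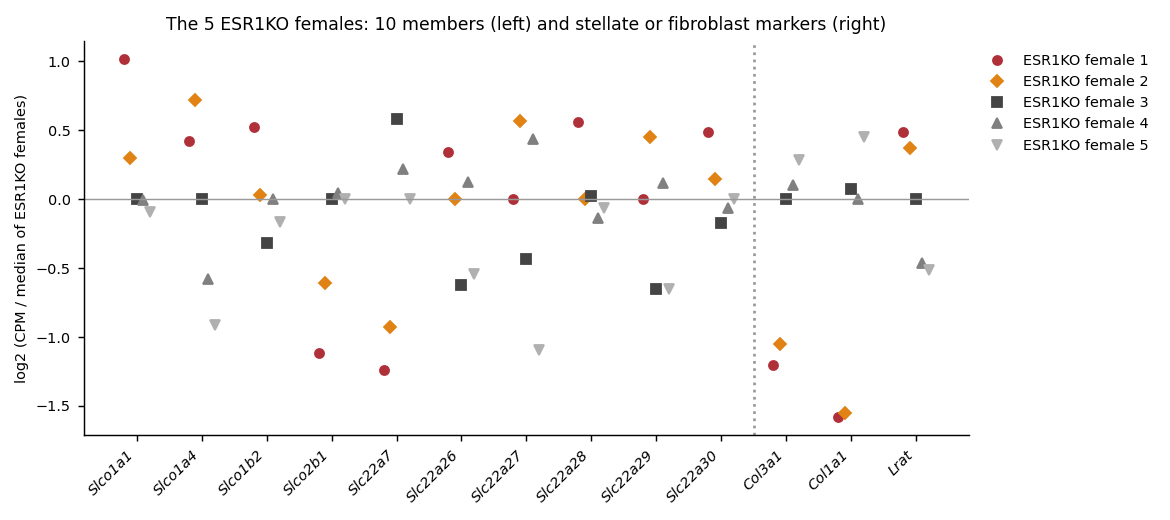
Log2 ratio of each ESR1KO female to the median of the 5 (y axis), for the 10 members and for *Col3a1*, *Col1a1* and *Lrat*. Females 1 and 2 lie below the other 3 in *Slco2b1*, *Slc22a7*, *Col3a1* and *Col1a1* and above them in *Slco1a4* and *Lrat*, and female 1 is the highest in *Slco1a1*, *Slc22a28* and *Slc22a30*.

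Few other genes of the 2 families passed the threshold. Of 12 other Slco genes listed, 3 were tested, and of 19 other Slc22 genes, 9 were. In the WT sex comparison edgeR called 0 of the 3 and 0 of the 9 (0 and 1 at an unadjusted p under 0.05, and 0 and 0 by DESeq2), and the median size of their log2 fold change was 0.23 and 0.21. In the other 5 comparisons edgeR called 1 of these genes (at most 2 per list and comparison at an unadjusted p under 0.05, and at most 1 by DESeq2), *Slc22a4*, a carnitine and ergothioneine transporter, which was lower in ESR1KO females than in WT males (-1.12 ± 0.22, edgeR adjusted p = 0.0118). *Slc22a6* and *Slc22a8*, the main OATs of the kidney, had 7 and 5 reads over all 15 libraries and were not tested.

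Efflux transporters of the hepatocyte showed sex bias in both directions. Of 16 tested, 5 differed between WT sexes: *Abcb1a* (2.25 ± 0.16, edgeR adjusted p = 7.73e-08) and *Slc47a1* were higher in females, and *Abcg2* (-1.75 ± 0.16, edgeR adjusted p = 1.73e-06), *Abcb1b* (-1.36 ± 0.26, edgeR adjusted p = 0.00408) and *Atp8b1* were higher in males. *Abcb1a* and *Abcb1b* code for P-glycoproteins and *Abcg2* for the breast cancer resistance protein. In ESR1KO mice edgeR called 0 of 16 between the sexes (2 at an unadjusted p under 0.05, 1 by DESeq2). The interaction passed for 4, *Abcb1a* (-2.14), *Abcb1b* (2.03), *Abcg2* (1.61) and *Slc47a1* (-0.77). In ESR1KO against WT females 5 of 16 changed, *Abcb1b*, *Abcg5*, *Slc51b* (-1.67 ± 0.40, edgeR adjusted p = 0.0236), *Abcg2* (1.53 ± 0.15, edgeR adjusted p = 6.80e-06) and *Abcb1a* (-1.19 ± 0.13, edgeR adjusted p = 3.20e-05). *Slc51b*, a subunit of the sinusoidal bile acid exporter, had few reads: 72 in WT females (0.415 to 0.596 CPM) and 35 in ESR1KO females (0.0453 to 0.276 CPM). *Slc51a*, also listed, had 12 reads over all 15 libraries and was not tested. In males 2 changed, *Abcb1b* (-1.08 ± 0.24, edgeR adjusted p = 0.0284) and *Abcb1a* (0.95 ± 0.15, edgeR adjusted p = 0.00415), and against WT males ESR1KO females differed in *Abcb1a* and *Atp8b1*. The median size of the log2 fold change over the 16 was 0.30 in the WT sex comparison.

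Of 14 other uptake and anion carriers, 3 differed between WT sexes: *Slc17a8* (-1.11 ± 0.27, edgeR adjusted p = 0.0229), *Slc17a4* (0.84 ± 0.21, edgeR adjusted p = 0.0229) and *Slc16a10* (0.82 ± 0.17, edgeR adjusted p = 0.00760), a carrier of aromatic amino acids. In ESR1KO mice edgeR called 0 of 14 (3 at an unadjusted p under 0.05, 0 by DESeq2). Between ESR1KO and WT females 4 changed, *Slc16a10* (-1.03), *Slc17a8* (1.77 ± 0.26, edgeR adjusted p = 4.58e-04), *Slc13a5* (-1.35 ± 0.30, edgeR adjusted p = 0.0160), a citrate carrier, and *Slc10a2* (1.31 ± 0.32, edgeR adjusted p = 0.0257), a bile acid carrier of bile ducts and ileum. *Slc17a8* was higher in ESR1KO males too (1.12 ± 0.25, edgeR adjusted p = 0.0355), *Slc16a10* passed the interaction (-0.996 ± 0.22, edgeR adjusted p = 0.0231), and *Slc10a2* and *Slc17a1* were higher in ESR1KO females than in WT males (1.25 and 0.81). The median size over the 14 was 0.21 in the WT sex comparison.

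Of 23 genes for nuclear receptors, liver transcription factors and growth hormone or prolactin signalling, 5 were higher in WT females than in WT males, among them *Cux2*, a female-biased liver repressor, at 6.14 ± 0.60 (edgeR adjusted p = 3.75e-06), *Prlr*, the prolactin receptor, at 2.34 ± 0.27 (edgeR adjusted p = 2.15e-05), *Esr1* and *Nr1i3*. *Cux2* was the 1 gene of this list called between ESR1KO females and males (3.07 ± 0.50, edgeR adjusted p = 0.00990). Its level was 35.5 to 57.9 CPM in WT females and 0.464 to 0.840 CPM in WT males, against 1.71 to 10.8 CPM for females and 0.325 to 0.610 CPM for males without ESR1. ESR1KO females were lower than WT females in 4 of the 23, *Cux2* (-3.32 ± 0.41, edgeR adjusted p = 8.78e-05), *Esr1* (-2.64 ± 0.25, edgeR adjusted p = 4.47e-06), *Prlr* (-0.92 ± 0.22, edgeR adjusted p = 0.0253) and *Stat5a*. In males 1 changed, *Esr1* (-1.62 ± 0.26, edgeR adjusted p = 0.00445), and against WT males ESR1KO females were higher in *Cux2* (2.82) and *Prlr* (1.42) and lower in *Esr1* (-1.46). For the interaction edgeR called 0 of 23 (6 at an unadjusted p under 0.05, 2 by DESeq2).

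The genes most like each member over the 15 libraries were named by Pearson's r of log2 CPM, as a description: the points fall into the 4 groups, so r reflects differences between groups as well as between mice. For *Slc22a26* they were *Cyp2c39* (r = 0.980), *Cyp2b9* (0.975) and *Cyp2a4* (0.967), and for *Slc22a27* *Cyp2c39* (0.977), *Cyp2c38* (0.967) and *Maob* (0.962). For *Slc22a28* they were *Keg1* (0.972), *Gm4956* (0.962) and *Nat8* (0.958), and for *Slco1a1* *Mup3* (0.957), *Dpy19l1* (0.952) and *Glyat* (0.947). *Slco1a4* was most like *Akr1d1* (0.905), *Sult1d1* (0.879) and *Sult1a1* (0.867), and *Slco2b1* most like *Serpinf1*, *Serpinc1* and *Gaa* (0.964, 0.964 and 0.962). For *Slc22a7* they were *F11*, *Prkcz* and *Gsdmd* (0.939, 0.937 and 0.900), and for *Slco1b2* *Tspan12*, *Tmem68* and *Ugt2a3* (0.926, 0.926 and 0.911). *Slc22a30* was most like *Cab39*, *Abhd13* and *Psip1* (0.953, 0.942 and 0.942), and *Slc22a29* least closely matched, with *Impg2*, *Acss3* and *Nqo1* (0.869, 0.867 and 0.860).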

How the data were processed

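Liver RNA was depleted of ribosomal RNA and sequenced in paired-end mode, with a further run for libraries with few reads. Per the labels, the authors trimmed the reads with Trimmomatic 0.36, aligned them to GRCm38 with STAR and made the deposited counts per gene with HTSeq (0.6.0 in the labels, another version in the methods of the study). Which gene annotation was used, whether strand was considered and how multi-mapping reads were handled is not given in the sources used here. The counts were whole numbers with no normalization, and totals per library set their precision.

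Genes were tested with edgeR 4.0.16 (quasi-likelihood F test, TMM scaling, filterByExpr, 1 mean per group over all 15 libraries), and p-values were adjusted by the Benjamini-Hochberg method over 17655 genes. A gene was called changed at an adjusted p under 0.05. Standard errors of log2 fold changes are the estimate divided by the square root of F. log2 CPM used a prior count of 2. Replicates are separate mice. The alternatives were DESeq2 1.42.0, other scalings and filters, the compared groups alone, a replicate block and leaving out each mouse. The code was tested on simulated counts with 200 changed genes. These were drawn from genes with a mean of at least 1 CPM and given log2 changes of 1.5 or 2 in size. Of them, 95% were recovered for the interaction and at least 99% for the other comparisons, with 7 to 15 false calls per comparison. Recovery of smaller changes, or of changes at lower levels, was not simulated. The simulated spread followed the trend with level over all genes. Spread particular to a gene, and the wider spread among ESR1KO females, were therefore not simulated, and recovery in these data may be lower.

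Exon lengths and positions came from GENCODE M21 (GRCm38), to which 17645 of the tested genes matched by ID. Windows around the starts came from RefSeq (GRCm38.p6) for 9 of the 10 members. The members and the lists of other transporters, regulators and cell markers were chosen with earlier results of these data known. All 10 members are named, with the 3 genes most like each (mean log2 CPM of at least 1) and, from each list, up to 3 genes with the largest changes past the threshold in each comparison. *Slc47a1*, *Atp8b1*, *Abcg5*, *Nr1i3*, *Stat5a*, *Slc22a6*, *Slc22a8*, *Slc51a* and the collagen, *Lrat*, *Alb* and *Hnf4a* values were chosen after their values were seen. So were smaller changes of other genes named to complete a count. Some items of the lists and of the motif search are not reported here. R 4.3.3, Python 3.11.15 and Biopython 1.88 were used.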

Additional observations from a re-analysis of the deposited data

Results flagged for a closer look

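ESR1KO female 1 stood apart from the other 4 ESR1KO females in 2 members, *Slco1a1* (1681 CPM, next 1018 CPM) and *Slc22a28* (32.7 CPM, next 22.6 CPM). The gap to the nearest mouse was over Dixon's limit in these 2 of 20 combinations of member and group tested, and chance flags about 1 in 20 groups.

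The difference between the sexes in the effect of genotype passed the test for 5 members. On the log2 scale it was 1.93 for *Slco1a1*, -7.64 for *Slc22a26*, -6.85 for *Slc22a27*, 3.45 for *Slc22a28* and 0.92 for *Slc22a30*.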

How the results depend on the processing

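Of 1370 values of a member in a comparison under an alternative, 1291 kept their direction and their side of the threshold, 17 lost a call, 29 gained one and 33 changed sign, none of these 33 for a member called in that comparison. With all 10 members together, the number changed was 6 to 7 between WT sexes, 1 between ESR1KO sexes, 4 to 5 and 2 to 3 between genotypes in females and in males, 4 to 5 for the interaction and 2 to 4 between ESR1KO females and WT males when any 1 mouse was left out. At an unadjusted p under 0.05 it was 5 between ESR1KO sexes, 5 between genotypes in males and 5 between ESR1KO females and WT males. The share of all tested genes at an unadjusted p under 0.05 was not computed, so such counts describe the listed genes alone. DESeq2 and testing without a filter on low counts gave 7 members in the WT sex comparison. Over all genes they called 1225 of 17655 and 968 of 33253.

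Sign changes between ESR1KO sexes were, using 3 ESR1KO females alone, a setting chosen after seeing the data, *Slco1a4* at -0.27, *Slco2b1* at 0.088 and *Slc22a7* at 0.32, and with total counts as library sizes *Slc22a29* at 0.033. Leaving out 1 mouse gave -0.32 to 0.14 for *Slc22a7* and -0.18 to 0.16 for *Slc22a29*. Between ESR1KO females and WT males, 3 ESR1KO females gave -0.26 for *Slco1a1* and -0.034 for *Slco1b2*, total counts gave 0.011 for *Slc22a30*, and *Slco2b1* was at -0.0128 with DESeq2 size factors, -0.0129 with DESeq2, -0.0138 with no filter, -0.0013 with a minimum of 1 CPM and -0.0028 with the compared groups alone. Leaving out 1 mouse gave -0.17 to 0.17 for *Slco1a1*, -0.0899 to 0.15 for *Slco2b1* and -0.14 to 0.043 for *Slc22a30*. The cause was not tested.

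Replicate numbers did not pair the mice: deviations of 19 same-numbered pairs correlated at -0.19 to 0.14, 1 of them over 0.1, and 1 of 14 libraries correlated best with its own number. With the replicate block, 6, 1, 5, 2, 4 and 3 members changed in the 6 comparisons, in the order given above. *Slc22a29* between ESR1KO sexes was at 0.12, and between ESR1KO females and WT males *Slco2b1* was at -0.20 and *Slc22a30* at 0.049. The block took the call from the *Slc22a30* interaction (edgeR adjusted p = 0.0538) and gave *Slc22a30* one between genotypes in females (edgeR adjusted p = 0.0441), and it changed no other call.

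Counts over all genes moved more. Between ESR1KO sexes 48 genes were called (28 higher in females), against 72 (55 higher) with total counts, 456 with DESeq2, 313 with no filter, 26 with the compared groups alone and 30 with 3 ESR1KO females. The 860 genes between WT sexes became 1574 with 3 ESR1KO females. The 1008 genes between genotypes in females became 1536 with DESeq2 and 457 with the compared groups alone. The 250 in males became 499 with DESeq2, 411 with no filter, 422 with the compared groups alone, 165 with the block and 477 with 3 ESR1KO females. The interaction went from 343 to 594 with DESeq2, and the comparison of ESR1KO females with WT males from 461 to 875 with DESeq2 and 242 with the compared groups alone. With 1 mouse left out the counts ranged, in the same order as the members above, over 541 to 1096, 26 to 109, 413 to 1538, 100 to 331, 242 to 393 and 215 to 722. Scaling moved the median of all genes by at most 0.0531 (log2). Low counts limit *Slc22a26* and *Slc22a27* in WT males.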
